A study of Capra hircus with 3 samples.

Results

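The genes of calcium and phosphate transport into milk were followed across lactation in the mammary gland of Laoshan dairy goats. The list held 10 genes, namely the calcium pumps ATP2B1, ATP2B2, ATP2C1, ATP2C2 and ATP2A2, the calcium entry genes ORAI1 and STIM1, the phosphate transporter gene SLC34A2, the receptor gene CASR and the hormone gene PTHLH. They were looked up by NCBI gene ID, and 9 of the 10 were found among 13023 protein-coding genes. CASR was not found under its ID and is not analysed here. Biopsies came from 5 healthy goats, 4 years old and in the third lactation, on the 10th (early), 90th (peak) and 210th (late) day after parturition. The RNA of the 5 goats was mixed in equal amounts, so that each stage is 1 library. Such a pool shows neither the spread between goats nor an error for any value below, and every difference between stages therefore stands without a replicate check or p-value. Values are FPKM, a count of sequenced fragments scaled to transcript length and to the mapped reads of the library, as the authors deposited them. They came without the number of reads behind a gene, so the depth of each value is unknown.

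Milk holds far more calcium than blood plasma, most of it bound with phosphate in the casein micelle. In the secretory cell, calcium enters from the blood side, in part through the ORAI1 channel when STIM1 senses that the store of the endoplasmic reticulum is low. The pumps encoded by ATP2A2, ATP2C1 and ATP2C2 load the endoplasmic reticulum and the Golgi and its vesicles, where micelles form, and in mice the pump encoded by ATP2B2 at the apical membrane moves much of the calcium into milk. SLC34A2 encodes a sodium-dependent phosphate transporter of epithelial apical membranes. PTHLH encodes parathyroid hormone-related protein, which the lactating gland makes and which releases calcium from bone, and CASR encodes the receptor through which the gland senses calcium in the blood.

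The labels of 2 of the libraries are in doubt. For 148 lncRNA genes that could be matched to the study's transcript list, the direction of late over peak lactation by label was the same for 20 and opposite for 128. The study also counted fewer differing mRNA transcripts between early and peak than between early and late lactation. By label the order here was the reverse. At least 2-fold apart were 2307 protein-coding genes between peak and early and 1132 between late and early. These are genes counted by fold alone, while the study counted transcripts by its own criteria. Each library is therefore called by its label, and if the columns were exchanged, what is said here of the library labelled peak would hold for late lactation and the reverse. The median FPKM of protein-coding genes above 0 was close in the libraries, at 7.05 in early, 7.23 in peak and 6.92 in late, while the most abundant locus took 30.0%, 46.0% and 29.9% of all FPKM. A listed 0 need not mean absence, as the milk protein gene LALBA was at 0 in the library labelled late and at 70053 FPKM in early.

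The calcium and phosphate genes fell into groups of unlike behaviour. ATP2C2, ATP2B2, ORAI1, SLC34A2 and PTHLH were all lowest in the library labelled peak, between 2.35-fold and 9.76-fold below early. ATP2B1 and STIM1 were highest there, at 1.501-fold and 1.62-fold over early, and ATP2C1 and ATP2A2 were 1.09-fold and 1.34-fold below early. Early and late lactation were less than 2-fold apart for all 9 genes, the widest gap being 1.68-fold for SLC34A2.

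**Figure D1:**
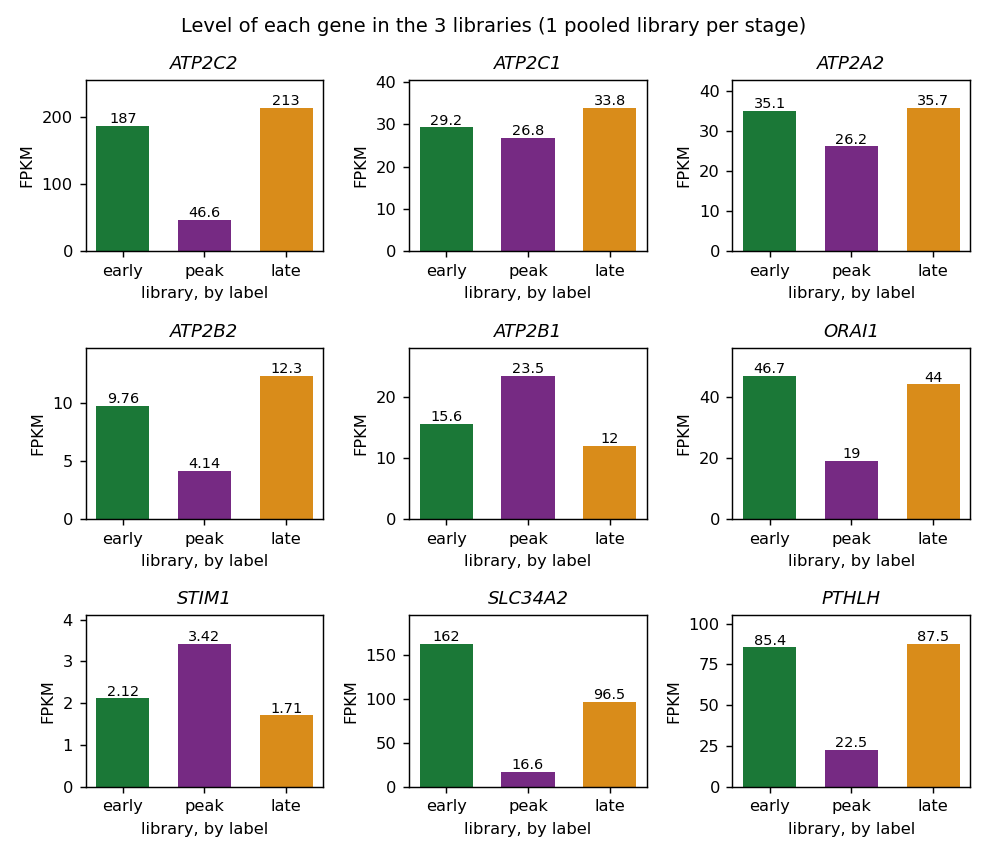
FPKM (vertical axes from 0, each with its own scale) of the 9 genes by labelled stage, 1 bar per pooled library and no error bar. ATP2C2, ATP2B2, ORAI1, SLC34A2 and PTHLH are lowest in the library labelled peak (for example 16.6 FPKM for SLC34A2 against 162 in early), while ATP2B1 and STIM1 are highest there.

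A ratio of at least 2 in either direction was counted as a difference. Between the libraries labelled peak and early, 5 of the 9 genes differed and all 5 were lower in peak, whereas 17.7% of 13020 protein-coding genes differed, 6.80% lower and 10.9% higher in peak. ATP2B2 is among the 5 by its own row, and with another gene ID listed at its position added, 4 of the 9 differed. The median log2 ratio was -1.24 over the 9 genes and -0.03 over the 11479 protein-coding genes that reached 1 FPKM in each of these libraries. Between late and early lactation none of the 9 genes differed, against 8.71% of 13004 protein-coding genes, 1.97% higher and 6.74% lower in late, and the medians were 0.02 and -0.01. Between late and peak lactation 6 of the 9 differed, against 25.9% of 13015 protein-coding genes. Of the 6, 5 were higher in late, as were 8.56% of protein-coding genes, and STIM1 alone was higher in peak, as were 17.4%. These comparisons share libraries, and the low values of the library labelled peak enter both of those that include it. Genes at least 2-fold lower in peak than in each of the others made up 4.80% of 11087 protein-coding genes with at least 1 FPKM in every library, and 5 of the 9. Genes at least 2-fold higher in peak than in each of the others made up 4.89% and held none of the 9.

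**Figure D2:**
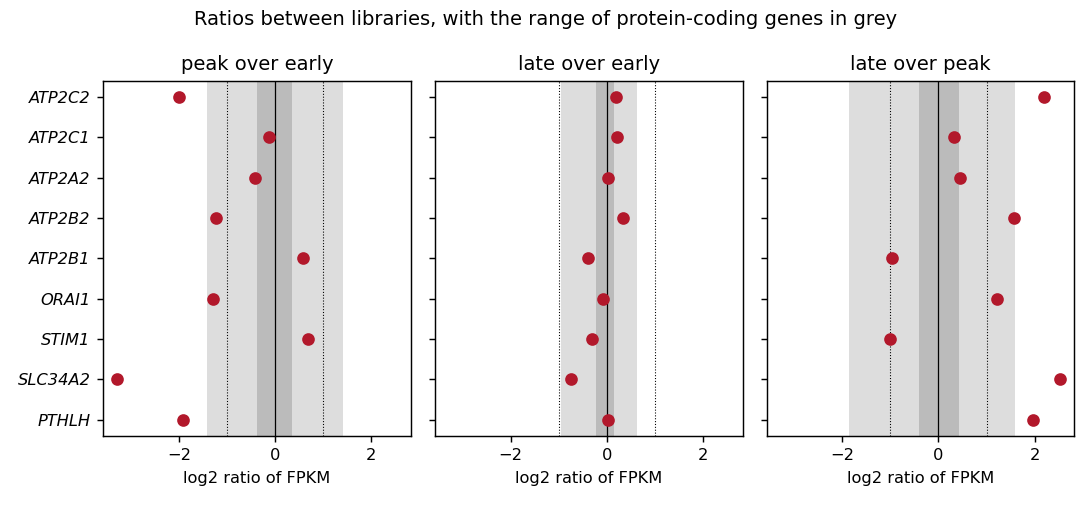
Log2 ratio of FPKM (horizontal axes) of the 9 genes for each pair of libraries, 1 point per gene, with dotted lines at a ratio of 2. Light grey spans the central 95% and dark grey the central 50% of protein-coding genes that reached 1 FPKM in each library compared. For peak over early, SLC34A2 (-3.29), ATP2C2 (-2.00) and PTHLH (-1.92) lie left of the light band, while for late over early all 9 lie inside the light band.

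The Golgi pumps differed from each other in their course. ATP2C2, which encodes the secretory pathway pump SPCA2 found mainly in secretory epithelia, had 187 FPKM in early, 46.6 FPKM in peak and 213 FPKM in late lactation. It was the most abundant of the 9 genes in every library, above 98.8% of protein-coding genes in early and above 95.2% in peak. The library labelled peak thus stood 4.01-fold below early and 4.57-fold below late, and 69 of the 11479 protein-coding genes had a lower ratio of peak over early. A second row with the same gene ID, an assembled transcript at the same position, added between 0.575 and 1.60 FPKM to these sums. The locus lies on scaffold NW_005100866.1 from 10053857 to 10136123, in the coordinates of the deposited table. The study's methods name the goat genome in 2 ways, by a version for mapping and by an assembly for building transcripts, and to which of them these scaffold names belong was not tested.

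ATP2C1, which encodes the pump SPCA1 found in nearly all cells, had 29.2 FPKM in early, 26.8 FPKM in peak and 33.8 FPKM in late lactation. No pair of libraries was more than 1.26-fold apart. Since FPKM is per length of transcript, the genes can be set against each other within a library, and ATP2C2 was 6.39 times as abundant as ATP2C1 in early and 6.30 times in late lactation, but 1.74 times in the library labelled peak.

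The pumps of the plasma membrane ran in opposite directions. ATP2B2, which encodes PMCA2, had 9.76 FPKM in early, 4.14 FPKM in peak and 12.3 FPKM in late lactation, and peak was 2.35-fold below early and 2.98-fold below late. This difference depends on how the locus is counted. Another gene ID, which was not found in the gene table used here, is listed at the identical position of scaffold NW_005100911.1, from 33381421 to 33668645, at 0 in early and late and 4.50 FPKM in peak. With its FPKM added, ATP2B2 had log2 ratios of -0.17 for peak over early and 0.51 for late over peak, in place of -1.24 and 1.57, so that the 2-fold difference was no longer present. Whether both rows share reads was not tested.

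ATP2B1, which encodes the widely expressed pump PMCA1, had 15.6 FPKM in early, 23.5 FPKM in peak and 11.95 FPKM in late lactation. Peak was 1.501-fold over early and 1.96-fold over late, just under the ratio counted as a difference. ATP2B2 and ATP2B1 were close in late lactation, and with 1 library per stage their order there cannot be told. In late lactation ATP2B2 was 1.03 times as abundant as ATP2B1, in early 0.624 times and in peak 0.177 times, the last of these without the second ID at the ATP2B2 locus.

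ATP2A2 encodes SERCA2, the pump that fills the endoplasmic reticulum in most cells. It had 35.1 FPKM in early, 26.2 FPKM in peak and 35.7 FPKM in late lactation, which placed it near the 90th percentile of protein-coding genes in each library (90.8%, 89.3% and 90.6% of genes were lower). Its log2 ratio of peak over early was -0.42, and 22.6% of protein-coding genes had a lower one.

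The channel and the sensor of store-operated calcium entry differed in both level and direction. ORAI1, which encodes the pore of the channel, had 46.7 FPKM in early, 19.0 FPKM in peak and 44.0 FPKM in late lactation. Peak was 2.46-fold below early and 2.32-fold below late, while early and late were 1.06-fold apart. STIM1, which encodes the sensor, was the lowest of the 9 genes in each library, with 2.12 FPKM in early, 3.42 FPKM in peak and 1.71 FPKM in late lactation. Peak was 1.62-fold over early and 2.001-fold over late, the latter just past the ratio counted as a difference and under it with a pseudocount of 0.1 FPKM. ORAI1 was thus 22.1 times as abundant as STIM1 in early, 5.54 times in peak and 25.7 times in late lactation.

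ORAI2 and ORAI3, which encode channels of the same family, were less abundant than ORAI1 in every library and highest in peak. ORAI3 had 2.94 FPKM in early, 5.02 FPKM in peak and 2.46 FPKM in late lactation, and ORAI2 was at most 1.31 FPKM, in peak. STIM2, which encodes a sensor that responds to smaller losses of stored calcium, had 7.21, 6.04 and 9.16 FPKM in early, peak and late lactation. It was above STIM1 in each library and, unlike STIM1, lowest in peak.

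SLC34A2, the phosphate transporter gene, showed the widest range of the 9. It had 162 FPKM in early, 16.6 FPKM in peak and 96.5 FPKM in late lactation. The library labelled peak was 9.76-fold below early, and 4 of 11479 protein-coding genes had a lower ratio. It was also 5.81-fold below late, with 38 of 11200 genes having a higher ratio of late over peak. SLC34A2 was the one of the 9 genes that also set early and late apart by more than 1.5-fold, with late 1.68-fold lower and 4.49% of 11234 protein-coding genes having a lower ratio. The gene is listed on scaffold NW_005100696.1 from 17308238 to 17335905, with no other row overlapping it. PTHLH is likewise listed alone at its position on scaffold NW_005100670.1, from 7127621 to 7142122.

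The more widely expressed phosphate transporter genes SLC20A1 and SLC20A2 did not follow it. SLC20A1 had 11.6 FPKM in early, 10.7 FPKM in peak and 10.0 FPKM in late lactation, and SLC20A2 had 8.38, 6.32 and 9.40 FPKM. SLC34A2 was therefore 14.0 times as abundant as SLC20A1 in early and 9.63 times in late, but 1.55 times in the library labelled peak. XPR1, which encodes a phosphate exporter, had between 4.214 and 4.996 FPKM.

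**Figure D3:**
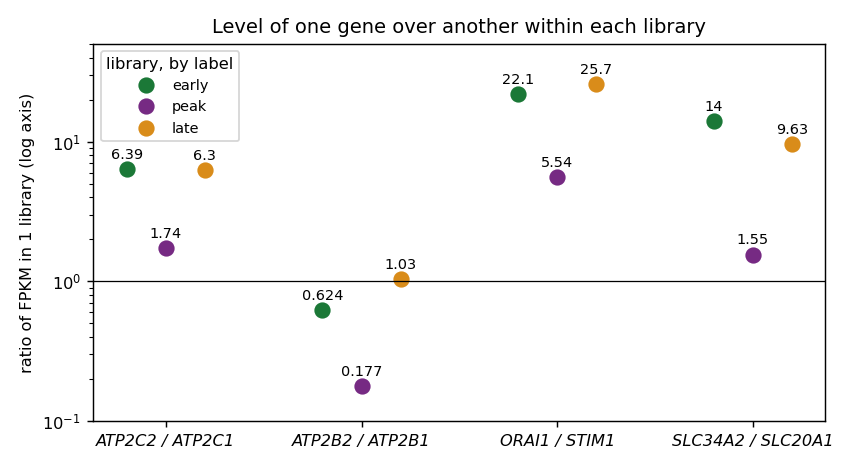
Ratio of the FPKM of one gene over another in the same library (vertical axis, log scale), 1 point for each stage as labelled, with a line at equal abundance. Each ratio is lowest in the library labelled peak, for example 1.74 for ATP2C2 over ATP2C1 against 6.39 in early and 6.30 in late.

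PTHLH, the hormone gene, had 85.4 FPKM in early, 22.5 FPKM in peak and 87.5 FPKM in late lactation. Early and late were 1.02-fold apart, and peak was 3.79-fold below early and 3.89-fold below late. In early lactation PTHLH was above 97.1% of protein-coding genes and in the library labelled peak above 86.7%. PTH1R, which encodes the receptor of parathyroid hormone and of this protein, was low and ran the other way, with 1.98 FPKM in early, 3.88 FPKM in peak and 0.995 FPKM in late lactation. VDR, which encodes the vitamin D receptor, had 22.8, 11.0 and 19.2 FPKM, 2.07-fold lower in peak than in early lactation.

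The order of levels was nearly the same in early and late lactation. From high to low it ran ATP2C2, SLC34A2, PTHLH, ORAI1, ATP2A2, ATP2C1, ATP2B1, ATP2B2 and STIM1 in early, and in late the one change was that ATP2B2 and ATP2B1 traded places at 12.33 and 11.95 FPKM. In the library labelled peak it ran ATP2C2, ATP2C1, ATP2A2, ATP2B1, PTHLH, ORAI1, SLC34A2, ATP2B2 and STIM1. The 6 genes after ATP2C2 there lay between 16.6 and 26.8 FPKM. With 1 library per stage it cannot be said which neighbours in these orders differ by more than an error.

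For ATP2B2 and SLC34A2, the genes with the likest course were sought among 11086 other protein-coding genes with at least 1 FPKM in every library, by the distance between their log2 ratios of peak and of late over early. Among the nearest to ATP2B2 were ZSWIM7, BTN1A1, MPP6 and SPATA13, at distances of 0.03 to 0.04. BTN1A1, which encodes butyrophilin of the milk fat globule membrane, had 2940 FPKM in early, 1241 FPKM in peak and 3788 FPKM in late lactation. Nearest to SLC34A2 were FZD5, a Wnt receptor gene, at a distance of 0.17, and then LIPG, C3H2orf82, PTPRG and CXCL17 at 0.57 to 0.79. FZD5 had 10.6, 1.21 and 6.05 FPKM. This likeness rests on 3 libraries and, for ATP2B2, on its row without the second ID.

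A wider list of calcium and phosphate genes was set beside the 9. It held 65 further genes, of which 45 were found. Between peak and early lactation 11 of the 45 were at least 2-fold apart, 6 higher and 5 lower in peak, with a median log2 ratio of -0.05. Between late and early it was 1 gene, and between late and peak 14, of which 4 were higher in late and 10 in peak. These are 24.4%, 2.22% and 31.1% of the 45, against 17.7%, 8.71% and 25.9% of protein-coding genes. Of the genes given here, SLC20A1, SLC20A2, XPR1, FAM20C, CALR, TMEM165, PTH1R, STC2, RYR2 and KL were named after their values were seen.

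Among the genes of casein phosphorylation and phosphate handling, 2 of the 8 found were at least 2-fold lower in peak than in early lactation and none was 2-fold higher, against 6.80% and 10.9% of protein-coding genes. FAM20A, which encodes the partner of the casein kinase of the Golgi, had 188 FPKM in early, 50.2 FPKM in peak and 178 FPKM in late lactation. FAM20C, which encodes that kinase, had 29.5, 15.8 and 30.0 FPKM, a log2 ratio of -0.90 for peak over early. ANKH, which encodes a membrane protein that releases pyrophosphate and ATP from cells, had 26.8, 8.86 and 30.6 FPKM.

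Of the 10 calcium-binding proteins found, NUCB2 alone was past the ratio, between peak and early and between late and peak. In these comparisons 17.7% and 25.9% of protein-coding genes were past it, so 1 of 10 is no more than that share. NUCB2, which encodes nucleobindin-2 of the secretory pathway, had 98.01 FPKM in early, 32.1 FPKM in peak and 178 FPKM in late lactation, and late was 5.54-fold over peak. CALR, which encodes the calcium buffer calreticulin of the endoplasmic reticulum, had 262, 234 and 298 FPKM, and none of the other 9 was 2-fold apart in any comparison. TMEM165, which encodes a Golgi membrane protein linked to calcium and manganese transport, had 16.2, 10.8 and 16.5 FPKM.

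Among the other pumps, channels and exchangers, those past the ratio between peak and early were all higher in peak. They were both endoplasmic reticulum genes found, 2 of 7 calcium entry genes, 1 of 5 release channel genes and 0 of 5 exchanger and mitochondrial uptake genes. ORAI2 and RYR2, counted among them, were below 1 FPKM in early, at 0.590 and 0.341 FPKM. Of all protein-coding genes 10.9% were 2-fold higher in peak, and each of these groups holds few genes. ATP2A3, which encodes SERCA3 and is known from blood cells and some epithelia, had 5.49 FPKM in early, 15.1 FPKM in peak and 3.03 FPKM in late lactation. PLN, which encodes phospholamban, the inhibitor of SERCA2 in muscle, had 5.13, 11.6 and 3.49 FPKM. ITPR1, a calcium release channel gene, had 15.6, 29.2 and 10.1 FPKM. It was under the ratio between peak and early, at 1.87-fold, and 2.90-fold higher in peak than in late. The loci of PLN and ITPR1 are also listed for 2 and 3 other rows, and what adding these would change was not tested. SLC8B1, the mitochondrial sodium-calcium exchanger gene, was 2.02-fold and FGFR1, a growth factor receptor gene, 2.25-fold higher in peak than in late lactation.

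TRPV6, which encodes an epithelial calcium channel, had the widest range of the genes named by rule. It had 1.83 FPKM in early, 15.4 FPKM in peak and 0.0335 FPKM in late lactation, and peak was 8.44-fold over early. STC2, which encodes the secreted protein stanniocalcin-2, had 0.190, 4.43 and 0.147 FPKM. RYR2, a release channel gene, was past the ratio between peak and early and higher in peak. KL, which encodes klotho, was past it in the other direction, lower in peak. They had no more than 0.969 and 2.28 FPKM in any library.

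**Figure D4:**
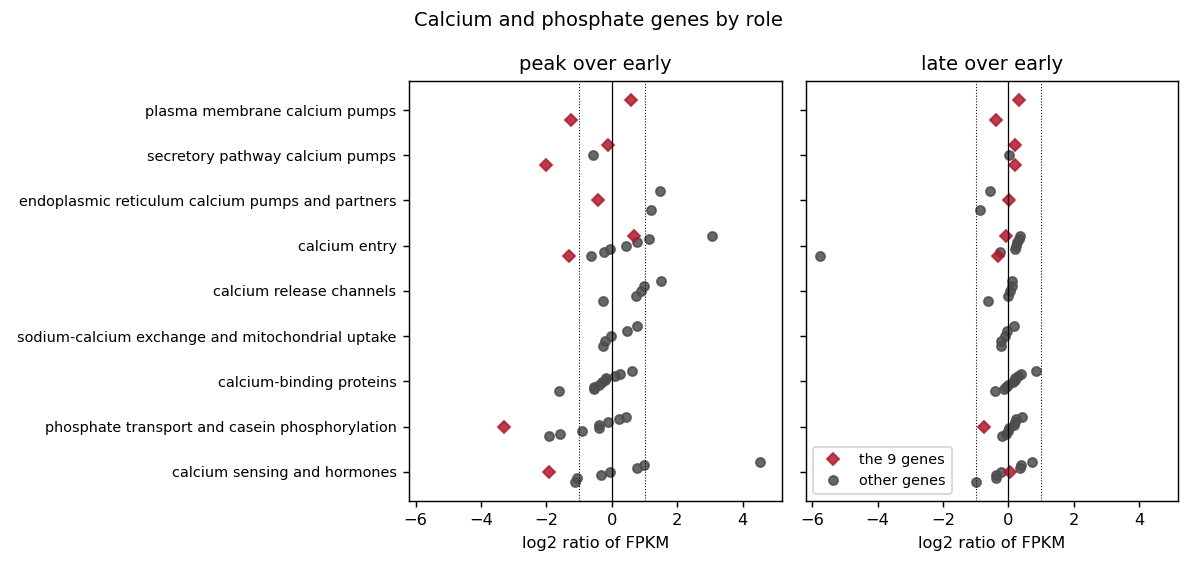
Log2 ratio of FPKM (horizontal axes) for peak over early and late over early lactation, by role, with diamonds for the 9 genes, grey circles for the 45 other genes found and dotted lines at a ratio of 2. For peak over early the points reach from -3.29 (SLC34A2) to 4.55 (STC2), while for late over early TRPV6 (-5.77) is the one gene past the dotted lines.

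The tissue was checked on marker genes. All 5 epithelial genes were present in each library, and their summed FPKM was 1138 in early, 571 in peak and 1162 in late lactation, mainly because ELF5, a transcription factor gene of the secretory lineage, had 879, 244 and 875 FPKM. The other 4 did not share this course, since KRT8 and KRT18 were 1.56-fold and 1.53-fold higher in peak than in early, EPCAM had 77.8, 60.0 and 76.4 FPKM, and CDH1 had 34.5, 39.8 and 36.7 FPKM. All 3 milk protein genes looked up were lower in peak than in early lactation, among them CSN3, which encodes kappa-casein, by 6.38-fold. In bulk tissue, fewer cells of a type and less RNA per cell cannot be told apart.

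The summed FPKM of the T cell, plasma cell and macrophage lists was highest in the library labelled peak. Summed over the 5 T cell genes, FPKM was 12.7 in early, 31.0 in peak and 5.18 in late lactation, with CD3E at 0 in early and peak and at 1.43 in late. The plasma cell list summed to 293, 503 and 356 FPKM, and the 4 macrophage genes found to 41.4, 56.0 and 26.6 FPKM. JCHAIN alone held 429 FPKM of the plasma cell sum in peak, and 0 of the 4 macrophage genes were 2-fold apart between peak and early. The myoepithelial list ranged from 247 to 259 FPKM, the endothelial list from 111 to 135 FPKM and the fibroblast list from 542 to 664 FPKM. Within these sums, OXTR of the myoepithelial list and COL1A2 and COL3A1 of the fibroblast list were at least 2-fold lower in peak than in early, and PDGFRA of the fibroblast list was 2-fold higher. Of the adipocyte list, 3 of 5 genes were found, with sums of 18.1, 5.85 and 6.41 FPKM, and of the skeletal muscle list 1 of 5, at 0.935 to 1.37 FPKM. What part these cells had in the values of ATP2A3, ATP2B1 or STIM1 was not tested.

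Whether the low values of the library labelled peak remained after division by an epithelial gene depended on the gene. After division by KRT8, KRT18, EPCAM or CDH1 in turn, the log2 ratio of peak over early lay between -3.92 and -2.91 for SLC34A2, between -2.64 and -1.63 for ATP2C2, and between -2.56 and -1.55 for PTHLH. It lay between -1.94 and -0.93 for ORAI1 and between -1.87 and -0.86 for ATP2B2, each under 2-fold with 1 of the 4 genes, EPCAM. ATP2B2 is taken here without the second ID at its locus, with which its ratio before division was -0.17 in place of -1.24. Division with that ID added was not done. For STIM1 the range was 0.05 to 1.07, and for ATP2B1 it was -0.05 to 0.96 and so crossed 0. After division by ELF5, the epithelial gene that was itself lower in peak, SLC34A2 alone stayed more than 2-fold lower, at -1.43. ATP2C2 and PTHLH were then at -0.15 and -0.071, and ORAI1 and ATP2B2 at 0.55 and 0.62. ATP2C1 and ATP2A2 were at 1.73 and 1.43, and ATP2B1 and STIM1 at 2.44 and 2.54.

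**Figure D5:**
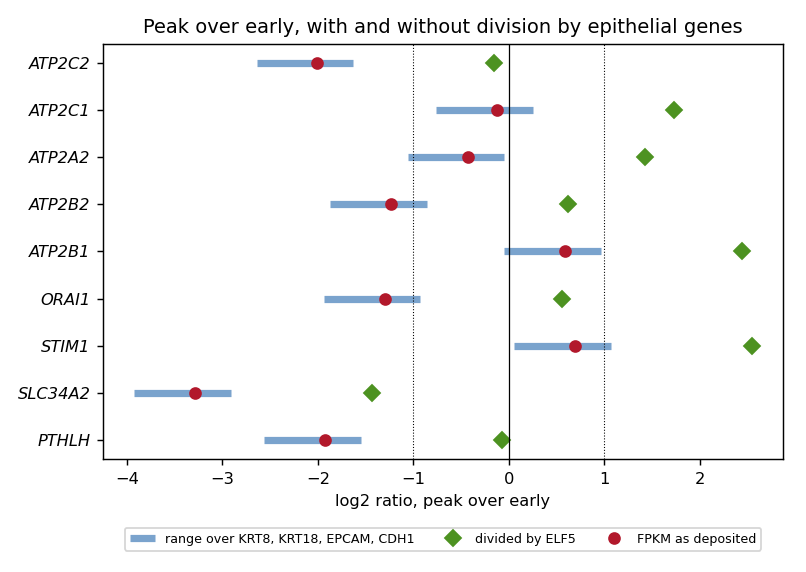
Log2 ratio of peak over early lactation (horizontal axis) of the 9 genes, as deposited (points), as the range after division by each of KRT8, KRT18, EPCAM and CDH1 (bars) and after division by ELF5 (diamonds), with dotted lines at a ratio of 2. The bars of SLC34A2, ATP2C2 and PTHLH lie wholly left of the dotted line, but with ELF5 SLC34A2 (-1.43) is the one gene left of it. ATP2B2 is shown without the second ID at its locus.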

How the data were processed

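Mammary RNA of 5 goats per stage was pooled into 1 library each. The authors deposited FPKM per locus, after trimming, mapping with TopHat2 2.0.9, assembly with Cufflinks 2.1.1 and Cuffmerge, and quantification with Cuffdiff (versions per the submitters' processing notes). How reads shared by overlapping rows were divided is not given in the sources used here. Loci were summed by NCBI gene ID, with symbols from the ARS1.2 gene table and no genome. Coordinates are on the scaffolds of the deposited values, counted from 1. Ratios were taken from FPKM, with 0 set to 0.001. As fixed in the design, no test was run on 1 library per stage. Fold counting was checked on simulated data without noise, which tests the arithmetic alone and not the differences between these libraries. The genes and lists were chosen with earlier results of these data known. Further genes were named where a ratio reached 2 with at least 1 FPKM in both libraries, along with paralogs, and 1 of the 5 genes likest to ATP2B2 is not reported here. Alternatives were folds of 4 and 1.5, pseudocounts of 1 and 0.1, a filter on low FPKM, the locus of highest mean, centring, exchange of the columns labelled peak and late, and, added after seeing the data, the second ID at ATP2B2. Python 3.11.15, numpy 2.4.6, pandas 2.3.3 and matplotlib 3.10.9 were used.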

Additional observations from a re-analysis of the deposited data

How the results depend on the processing

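No paired analysis was possible because the 5 goats of a stage were pooled, and for the same reason no replicate could be left out. Of the 9 genes, those apart numbered 2 at a fold of 4 in place of 5 between peak and early, 2 in place of 6 between late and peak, and 1 in place of 0 at a fold of 1.5 between late and early. With the columns labelled peak and late exchanged, 0 were apart between peak and early and 5 between late and early. By construction the exchange reverses every ratio of late over peak and trades the ratios of peak and of late over early. With the exchange 4 of the 27 log2 ratios of the 9 genes kept their sign. Of the ratios past 2-fold, it turned those of late over peak to -1.57 for ATP2B2, -2.19 for ATP2C2, -1.21 for ORAI1, 1.0004 for STIM1, -2.54 for SLC34A2 and -1.96 for PTHLH, and those of peak over early to 0.34 for ATP2B2, 0.19 for ATP2C2 and 0.035 for PTHLH. Of the 45 wider genes, 2, 7, 7, 21 and 1 were apart between peak and early at a fold of 4, with a pseudocount of 1, with at least 1 FPKM in both libraries, at a fold of 1.5 and with the exchange, in place of 11. Between late and early 0, 6 and 11 were apart with at least 1 FPKM in both libraries, at a fold of 1.5 and with the exchange, in place of 1, and between late and peak 4, 28 and 9 at a fold of 4, at a fold of 1.5 and with the same filter on FPKM, in place of 14. With a pseudocount of 1, 10 were apart between late and peak. The filter on FPKM left 40 of the 45 to count between peak and early, 39 between late and early and 38 between late and peak. Stricter thresholds count fewer genes by construction. The share over all protein-coding genes was not counted under these alternatives, so whether the counts differ from it cannot be said. All 27 log2 ratios of the 9 genes kept their sign with centring. They also did so with pseudocounts of 0.1 or 1, which cannot turn a sign. The locus of highest mean FPKM could change ATP2C2 alone, the only one of the 9 genes with 2 rows, and turned no sign. Nor did the second ID at ATP2B2, which moved 2 of the 27 ratios and left 25 the same. The pseudocount of 1 moved a ratio by at most 0.29 and centring by at most 0.03. Between late and peak, either pseudocount left 5 genes apart, without STIM1, and centring gave 7, with ATP2B1 added. With the second ID added, 4 of the 9 genes were apart between peak and early and 5 between late and peak. The depth behind an FPKM is unknown, so low genes such as STIM1 and the 2 other ORAI genes carry an error that cannot be stated.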

Other observations

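Of the deposited values with 7 or more digits, 95.9% in early, 99.4% in peak and 97.3% in late lactation ended in 5. Where this comes from was not tested.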
